A study of Mus musculus with 24 samples.

Results

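The 10 genes described here, of 46078 genes counted, were the transforming growth factor beta (TGF-beta) ligands Tgfb1, Tgfb2 and Tgfb3, the activin subunit genes Inhba and Inhbb, the family member Gdf15, the bone morphogenetic protein (BMP) ligands Bmp2, Bmp4 and Bmp6, and the inhibitor Smad7. They were chosen by name, and each was found in the count tables through its Ensembl identifier. All 10 passed the filter on low counts. Heart tissue came from C57BL/6 mice, a common inbred strain, and the labels name no genetic change in any group. Hearts had ischemia for 45 min and then reperfusion for 0.5, 1, 1.5, 3, 6 or 12 h, or ischemia for 45 min alone, or sham surgery, and each of the 8 groups had 3 RNA-seq libraries. Ischemia stops the blood flow to the muscle, and reperfusion lets it return. The design follows messenger RNA in heart tissue of mixed cell types over the hours after blood flow returns.

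Ligands of this family are made as precursors, are cut and released as dimers, and bring together pairs of kinase receptors on the cell surface. Receptors of TGF-beta and activin pass the signal to the transcription factors Smad2 and Smad3, receptors of BMPs pass it to Smad1, Smad5 and Smad9, and Smad7 is induced by the signal and blocks it. In the heart TGF-beta is best known for scar formation by fibroblasts, BMPs for heart and valve development, and Gdf15 as a hormone released by stressed tissue.

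The sequences before the gene starts are shown first, and their part in the time courses was not tested. RefSeq promoter entries on GRCm38.p6 were matched for 7 members in 8 windows, and the 250 bases before each start were read. Tgfb3, Bmp2 and Smad7 are named only. The 6 windows printed are those of the activin subunit genes, which had the highest fold changes of the members, and the 4 that held a match to a motif searched. Each runs 5′ to 3′ on the strand of its gene, and capitals mark an E-box (CACGTG).
Inhba promoter, chr13:16011601-16011850 (+): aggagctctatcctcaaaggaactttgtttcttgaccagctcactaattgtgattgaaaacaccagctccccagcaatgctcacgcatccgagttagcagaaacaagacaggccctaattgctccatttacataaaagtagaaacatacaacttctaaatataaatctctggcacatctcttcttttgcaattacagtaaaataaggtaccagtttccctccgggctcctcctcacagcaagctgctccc
Inhbb promoter, chr1:119422249-119422498 (-): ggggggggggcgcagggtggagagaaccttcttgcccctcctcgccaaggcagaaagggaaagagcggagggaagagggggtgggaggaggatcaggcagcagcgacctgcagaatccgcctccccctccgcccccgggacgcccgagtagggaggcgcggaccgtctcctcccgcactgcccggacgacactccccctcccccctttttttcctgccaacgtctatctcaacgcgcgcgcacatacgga
Tgfb2 promoter, chr1:186705990-186706239 (-): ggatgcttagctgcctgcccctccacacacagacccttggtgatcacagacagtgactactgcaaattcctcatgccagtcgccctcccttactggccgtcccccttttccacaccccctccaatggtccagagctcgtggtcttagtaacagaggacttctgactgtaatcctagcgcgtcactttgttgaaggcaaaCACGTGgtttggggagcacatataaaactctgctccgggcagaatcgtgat
Gdf15 promoter of the second start, chr8:70632096-70632345 (-): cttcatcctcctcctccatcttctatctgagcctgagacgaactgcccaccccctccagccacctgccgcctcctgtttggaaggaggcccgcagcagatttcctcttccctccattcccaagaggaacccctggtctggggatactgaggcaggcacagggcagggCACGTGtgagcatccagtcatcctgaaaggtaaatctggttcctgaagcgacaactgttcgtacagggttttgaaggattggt
Bmp4 promoter, chr14:46390670-46390919 (-): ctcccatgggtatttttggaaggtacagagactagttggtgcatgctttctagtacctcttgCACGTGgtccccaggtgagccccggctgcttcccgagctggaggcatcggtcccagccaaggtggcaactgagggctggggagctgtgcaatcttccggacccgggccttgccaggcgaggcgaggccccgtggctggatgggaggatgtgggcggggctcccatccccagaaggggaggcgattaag
Bmp6 promoter, chr13:38345466-38345715 (+): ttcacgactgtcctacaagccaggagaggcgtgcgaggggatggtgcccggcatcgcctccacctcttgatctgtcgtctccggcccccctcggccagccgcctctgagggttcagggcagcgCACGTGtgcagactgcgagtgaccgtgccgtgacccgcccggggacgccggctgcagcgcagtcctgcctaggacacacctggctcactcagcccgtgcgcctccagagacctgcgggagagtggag
Both strands were searched for 5 motifs, none of which contains another: the AP-1 site TGANTCA, the cAMP response element TGACGTCA, the C/EBP-ATF element TGATGNAA, the Smad box GTCTAGAC and the E-box CACGTG. The E-box stood 51 to 46 bases before the start of Tgfb2, 83 to 78 before the second start of Gdf15, 188 to 183 before that of Bmp4 and 127 to 122 before that of Bmp6. These starts are those of the promoter entries. The windows of Bmp6 and of the second start of Gdf15 lie inside the gene spans given below. It was present in 6.02% of all 32851 promoter windows of the same length. The other motifs had 0 matches in the 8 windows, and they occurred in 6.75% (AP-1), 1.55% (cAMP response element), 3.45% (C/EBP-ATF) and 0.167% (Smad box) of all windows. A match describes letters in the window and shows no binding.

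Counts of uniquely mapped reads summed to between 13407465 and 17181458 per library, and 15128 genes were tested. Levels are CPM, counts per fixed library size after scaling by the trimmed mean of M values (TMM). By library totals alone, before that scaling, 3 counts were worth 0.175 to 0.224 CPM. Fold changes are on the log2 scale with their standard error. Calls are genes with an adjusted p below 0.05 in edgeR's quasi-likelihood test, with Benjamini-Hochberg adjustment over all tested genes of a comparison, and every adjusted p given here is of that kind unless another tool is named. Nothing in the labels tells whether a group's 3 libraries are from different mice. The p-values therefore describe the spread among libraries, part of which may be technical.

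The 8 ventricular muscle markers summed to 42029 to 78896 CPM over all libraries, and the 3 atrial markers to 0.536 to 3.55 CPM. By these markers the libraries held ventricular muscle RNA and very little RNA of atrial muscle. Ischemia replicate 3 stood apart in its group, with 19.0% of counts from mitochondrial genes and 41.2% duplicate reads, where replicates 1 and 2 had 30.2% and 29.7% mitochondrial counts and 52.7% and 54.5% duplicates. The chi-square per degree of freedom between its counts and those of reperfusion 0.5 h replicate 2 was 6.41. Ischemia replicates 1 and 2 had 8.85 between them, and replicate 1 had 7.20 with sham replicate 2. The part of this likeness in the comparisons with ischemia was not tested. Reperfusion 1 h replicate 1 also stood apart. Its counts had a chi-square per degree of freedom of 41.9 and 30.8 with those of replicates 2 and 3, which had 6.88 between them. At 1 h against sham, 4 members were called with and without this library. All tested genes called higher and lower fell from 1129 and 516 to 441 and 118 without it. Mitochondrial counts were 19.0% to 28.7% in the 18 reperfusion libraries, all below the 28.9% to 33.2% of sham, and duplicates were 39.2% to 52.0% in reperfusion libraries and 50.1% to 54.4% in sham. The part of these shares in the comparisons with sham was not tested. In tissue of mixed cell types, fewer cells of a type and less RNA per cell cannot be told apart. Since strand use is not stated, reads of Tgfb2, Tgfb3, Inhba, Bmp4 and Bmp6 cannot be separated from those of overlapping genes on the other strand.

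Most of the ligand genes rose during reperfusion, and 0 of 10 members were called lower than sham at any time. Against sham, 0 members were called higher in ischemia, 5 at 0.5 h, 4 at 1 h, 4 at 1.5 h, 9 at 3 h, 9 at 6 h and 7 at 12 h. The shares of all tested genes called higher in the same comparisons were 0.0925%, 7.43%, 7.46%, 4.55%, 18.4%, 24.6% and 16.9%, and those called lower were 0%, 4.48%, 3.41%, 2.99%, 16.9%, 22.9% and 14.9%. At 0.5 h the calls were Tgfb1, Inhbb, Gdf15, Bmp2 and Smad7, and the last 4 were also called at 1 and 1.5 h. All members but Tgfb3 were called at 3 and 6 h, and all but Tgfb3, Bmp2 and Bmp4 at 12 h. The 7 comparisons share their sham libraries, so their counts are not independent of each other.

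In ischemia 1 member, Inhbb, was higher and 0 were lower at an unadjusted p under 0.05, and DESeq2 called 0. Among the later times, Tgfb3 at 6 h was the 1 member below sham at an unadjusted p under 0.05, and DESeq2 called 0 members lower in any of the 7 comparisons. The median log2 fold change of the 10 members was 0.29 in ischemia, 0.78, 0.75 and 0.76 at 0.5, 1 and 1.5 h, 1.58 at 3 h, 1.62 at 6 h and 0.94 at 12 h. The median of all tested genes lay between -0.01 and 0.01 in each of these comparisons. Of the 10 members, 1 had all ischemia libraries outside the sham range, and 7 did at 0.5 h, 6 at 1 h, 6 at 1.5 h, 10 at 3 h, 9 at 6 h and 6 at 12 h. They lay above sham except for Tgfb2 at 0.5 h and Tgfb3 at 6 h. How many of all tested genes lay outside the sham range in this way was not counted, so no share stands beside these numbers. All 10 members were called in 1 test for any change across the 8 groups, as were 64.3% of all tested genes.

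**Figure D1:**
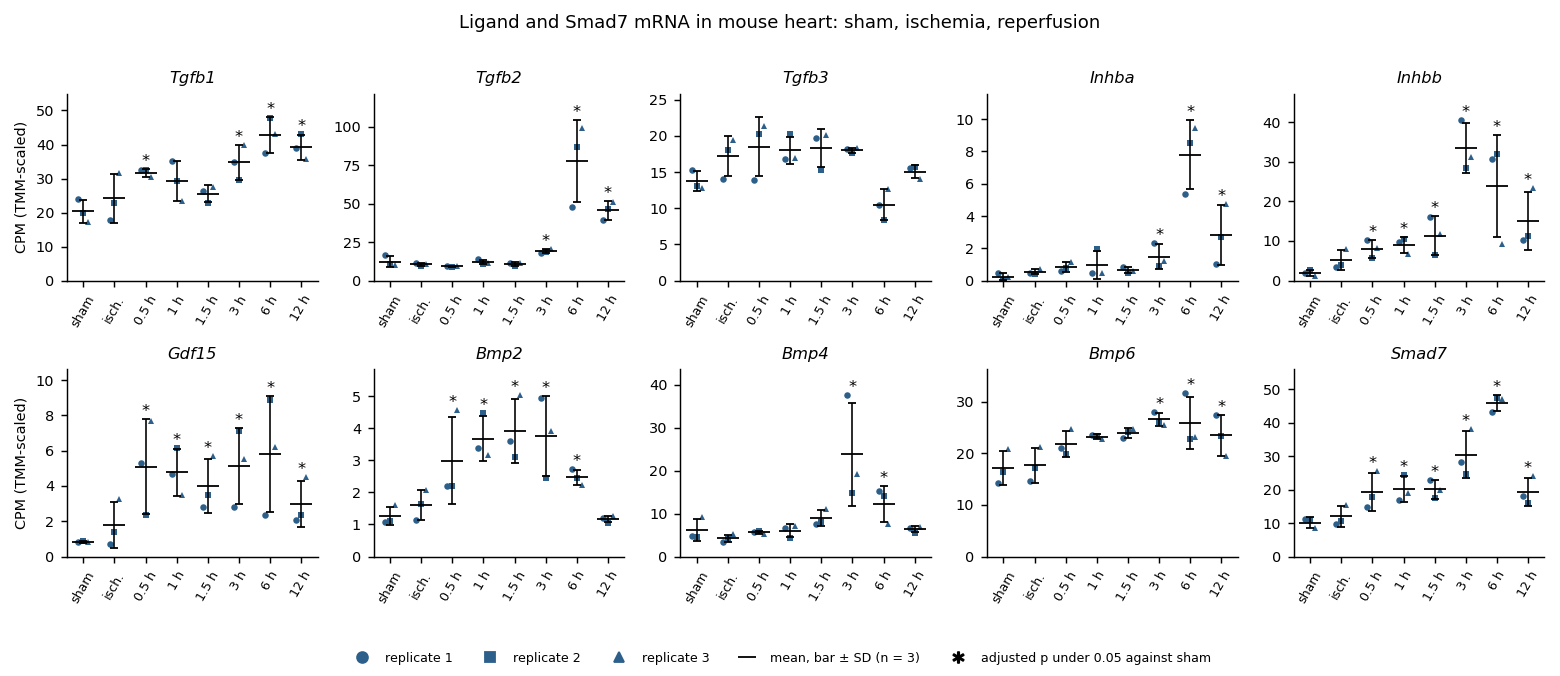
Level of each gene in CPM of the TMM-scaled library (vertical axis, linear, from 0) in the 8 groups (horizontal axis), with 1 point per library, the mean ± SD of 3 libraries, and a star where the adjusted p against sham was under 0.05. Gdf15, Inhbb, Bmp2 and Smad7 have stars from 0.5 h, Bmp4 is highest at 3 h, Tgfb2 and Inhba are highest at 6 h, and Tgfb3 is lowest at 6 h and has no star.

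Per length, Tgfb1 and Bmp6 were the most abundant members in sham hearts, at 5.69 ± 1.14 and 5.06 ± 0.806 RPKM, the authors' deposited unit, which divides reads by gene length and by library size (SD, n = 3). Tgfb3 had 2.90 ± 0.383, Bmp4 1.97 ± 0.735, Smad7 1.61 ± 0.290 and Tgfb2 1.54 ± 0.487 RPKM there. The least abundant were Gdf15 (0.324 ± 0.0245 RPKM), Inhbb (0.318 ± 0.128), Bmp2 (0.252 ± 0.0496) and Inhba (0.0918 ± 0.0717). At 6 h Tgfb1 (13.2 ± 1.29 RPKM) and Tgfb2 (10.6 ± 3.53) were the most abundant, and Inhba had 3.10 ± 0.812 RPKM beside 2.45 ± 0.515 RPKM for Tgfb3. Tgfb2 thus had a lower mean than Tgfb3 in sham and a higher one at 6 h on this scale.

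Tgfb1 (chr7:25687002-25705077, + strand, GRCm38), the isoform stored in platelets and made by many other cells, rose modestly and was still up at 12 h. Its level was 23.9, 19.9 and 17.2 CPM in sham, 17.7, 23.0 and 31.8 in ischemia, 32.5, 32.4 and 30.4 at 0.5 h, 35.2, 29.4 and 23.4 at 1 h and 26.4, 22.8 and 27.6 at 1.5 h. At later times it was 34.9, 29.4 and 39.9 CPM at 3 h, 37.4, 47.7 and 43.2 at 6 h and 38.9, 43.0 and 35.6 at 12 h. All libraries of 0.5, 3, 6 and 12 h lay above the sham range, and those of ischemia, 1 h and 1.5 h overlapped it.

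Against sham the log2 fold change of Tgfb1 was 0.64 ± 0.18 at 0.5 h (adjusted p = 0.0229), 0.77 ± 0.18 at 3 h (0.00172), 1.07 ± 0.18 at 6 h (2.99e-05) and 0.95 ± 0.18 at 12 h (0.000249). It was not called at 1 h (0.53 ± 0.18, adjusted p = 0.0577) or 1.5 h (0.33 ± 0.18, 0.285). The call at 0.5 h was lost without replicate 2 or 3 of sham (0.0685 and 0.112) or replicate 1, 2 or 3 of 0.5 h (0.0767, 0.0574 and 0.0511), with adjusted p from 0.00122 to 0.112 over its alternatives. The 1 h value became a call without replicate 3 of 1 h (0.0268) and by DESeq2 (0.0399), in a span of 0.0158 to 0.260 for its alternatives.

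Tgfb2 (chr1:186622792-186705989, - strand), an isoform prominent in heart development, rose late and by more than Tgfb1. Sham libraries had 16.4, 10.9 and 9.91 CPM, ischemia 11.5, 9.39 and 10.9, 0.5 h 9.41, 8.92 and 9.35, 1 h 13.9, 11.00 and 11.5 and 1.5 h 11.5, 9.24 and 11.2. From there it was 18.2, 18.7 and 20.5 CPM at 3 h, 47.8, 86.9 and 99.2 at 6 h and 39.2, 46.9 and 51.0 at 12 h. The 3 h libraries lay above all earlier ones, and the 6 h and 12 h libraries, which overlapped each other, lay above those of 3 h.

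The log2 fold change of Tgfb2 against sham was 0.62 ± 0.21 at 3 h (adjusted p = 0.0217), 2.64 ± 0.21 at 6 h (9.83e-10) and 1.87 ± 0.20 at 12 h (2.87e-07). Before that it was not called, with -0.43 ± 0.21 at 0.5 h (adjusted p = 0.183), where all 3 libraries lay below sham. In 6 h hearts it was 2.02 ± 0.20 above 3 h hearts (3.59e-07). The 3 h call was lost without replicate 2 or 3 of sham (0.0935 and 0.112) or replicate 3 of 3 h (0.0754), with adjusted p from 0.00130 to 0.112 over its alternatives. Gm26169, a small nucleolar RNA gene, and the antisense gene Gm29491 overlap Tgfb2 on the other strand.

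Tgfb3 (chr12:86056745-86079041, - strand), the third isoform, was the member without a call against sham at any time. It had 12.8 to 15.3 CPM in sham and 13.9 to 21.4 CPM over ischemia and 0.5 to 3 h. At 6 h it had 10.4, 8.41 and 12.6 CPM, against 15.3, 13.1 and 12.8 CPM in sham, and at 12 h it had 15.5, 15.7 and 14.0 CPM. The 3 libraries of 6 h lay below those of every other group.

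For Tgfb3 the log2 fold change against sham was -0.39 ± 0.17 at 6 h, with an unadjusted p of 0.0326 and an adjusted p of 0.0651 by edgeR. It fell by 0.78 ± 0.17 in 6 h hearts against 3 h hearts (adjusted p = 0.00144). The 6 h value against sham became a call without replicate 3 of 6 h (0.0225) and with duplicate reads removed (0.0133), in a span of 0.0133 to 0.293 for its alternatives. At 0.5 h (0.43 ± 0.17) it became a call without replicate 1 of 0.5 h (0.0446), in a span of 0.0446 to 0.318. At 3 h (0.39 ± 0.17) it did so when only sham and 3 h libraries were fitted (0.0401, span 0.0401 to 0.191). The protein-coding gene Ttll5 and the loci Gm37804 and Gm48008 overlap Tgfb3 on the other strand.

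Inhba (chr13:16011851-16031621, + strand) encodes the subunit of activin A and had the highest fold change of the members. In sham it was counted 7, 1 and 3 times (0.449, 0.0685 and 0.240 CPM), so that replicates 2 and 3 lay at or under the floor of 3 counts. It had 0.469, 0.424 and 0.713 CPM in ischemia, 0.580, 0.778 and 1.18 at 0.5 h, 0.441, 1.97 and 0.497 at 1 h and 0.868, 0.472 and 0.598 at 1.5 h. Later libraries had 2.35, 0.887 and 1.24 CPM at 3 h, 5.38, 8.54 and 9.47 at 6 h and 1.04, 2.68 and 4.72 at 12 h. The 6 h libraries lay above those of every other group, and replicate 2 of 1 h lay apart from the other libraries of 1 h.

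Against sham, Inhba was higher by 2.52 ± 0.69 at 3 h (adjusted p = 0.00639), 4.88 ± 0.62 at 6 h (9.37e-07) and 3.41 ± 0.65 at 12 h (0.000283). These calls held without each library in turn, with log2 fold changes of 2.02 to 3.28, 4.43 to 5.64 and 2.83 to 4.17. It rose by 2.36 ± 0.48 in 6 h hearts against 3 h hearts (0.000819). At 0.5 h (1.70 ± 0.73) and 1 h (1.92 ± 0.72) the adjusted p was 0.130 and 0.0872. Without the low-count filter both were called (0.0228 and 0.00558, spans 0.0228 to 0.341 and 0.00558 to 0.530), as was 1 h by DESeq2 (0.0360). With 11 sham reads over the group, the size of these fold changes is imprecise. The pseudogene B230303A05Rik and the antisense gene Gm48444 overlap Inhba on the other strand.

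Inhbb (chr1:119415465-119422248, - strand) encodes the subunit of activin B and was called at earlier times than Inhba. Its libraries had 1.80, 2.67 and 1.20 CPM in sham, 3.42, 3.89 and 8.06 in ischemia, 10.2, 5.69 and 8.22 at 0.5 h, 9.70, 10.6 and 6.77 at 1 h and 16.03, 6.34 and 11.7 at 1.5 h. It then had 40.5, 28.4 and 31.3 CPM at 3 h, 30.8, 32.0 and 9.16 at 6 h and 10.2, 11.4 and 23.4 at 12 h. Every library of ischemia and reperfusion lay above the 3 sham libraries, and replicate 3 of 6 h was far below the other libraries of 6 h.

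The log2 fold change of Inhbb in ischemia against sham was 1.44 ± 0.51, which was not called (adjusted p = 0.410). During reperfusion it was 2.07 ± 0.49 at 0.5 h (adjusted p = 0.00975), 2.23 ± 0.49 at 1 h (0.00525), 2.57 ± 0.49 at 1.5 h (0.00146), 4.12 ± 0.48 at 3 h (9.55e-07), 3.65 ± 0.48 at 6 h (1.46e-06) and 2.96 ± 0.48 at 12 h (5.18e-05). Without a filter on low counts the ischemia value was called (adjusted p = 1.70e-07, span 1.70e-07 to 0.980). The 0.5 h call was lost without replicate 3 of sham (0.0558) or replicate 1 of 0.5 h (0.0504), with adjusted p from 1.26e-17 to 0.0558 over its alternatives, and those of 1 to 12 h were kept without each library in turn.

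Set side by side, the activin subunit genes had different steps. In 3 h hearts against 1.5 h hearts Inhbb rose by 1.56 ± 0.39 (adjusted p = 0.0158), and Inhba had 1.22 ± 0.58 without a call (0.211). The Inhbb step was lost without replicate 2 of 1.5 h (0.101) or replicate 1 of 3 h (0.0631), with adjusted p from 4.26e-15 to 0.101 over its alternatives. In 6 h hearts against 3 h hearts Inhbb had -0.48 ± 0.38 without a call (adjusted p = 0.367), and called without the low-count filter (0.0423, span 0.0423 to 0.888), while Inhba rose by 2.36 ± 0.48. The difference between the genes was not tested.

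Gdf15 (chr8:70629393-70632456, - strand), a secreted protein that acts on a receptor in the brainstem, was called from 0.5 h on and had no single peak beyond its spread. Its libraries held 0.835, 0.890 and 0.800 CPM in sham, 0.737, 1.41 and 3.24 in ischemia, 5.29, 2.33 and 7.69 at 0.5 h, 4.70, 6.16 and 3.48 at 1 h and 2.81, 3.51 and 5.71 at 1.5 h. They held 2.83, 7.10 and 5.53 CPM at 3 h, 2.37, 8.90 and 6.23 at 6 h and 2.09, 2.37 and 4.49 at 12 h. All reperfusion libraries lay above sham, and the 6 reperfusion groups overlapped each other.

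Gdf15 rose against sham by 2.59 ± 0.57 at 0.5 h (adjusted p = 0.00615), 2.49 ± 0.57 at 1 h (0.00685), 2.24 ± 0.58 at 1.5 h (0.0169), 2.59 ± 0.57 at 3 h (0.00114), 2.78 ± 0.56 at 6 h (0.000296) and 1.81 ± 0.58 at 12 h (0.0195). In ischemia it had 1.12 ± 0.61 (adjusted p = 0.652). The 1.5 h call was lost without replicate 1, 2 or 3 of sham (0.0648, 0.0619 and 0.0621) or replicate 3 of 1.5 h (0.104), with adjusted p from 1.31e-09 to 0.104 over its alternatives. The 12 h call was lost without replicate 1, 2 or 3 of sham (0.0574, 0.0530 and 0.0558) or replicate 3 of 12 h (0.101), with adjusted p from 9.70e-07 to 0.101 over its alternatives. Gfral, the gene of its receptor, was counted 0 times in every library.

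Bmp2 (chr2:133552159-133562885, + strand), a ligand of the BMP branch, rose early and was back in the sham range at 12 h. It had 1.09, 1.10 and 1.60 CPM in sham, 1.14, 1.62 and 2.08 in ischemia, 2.19, 2.21 and 4.56 at 0.5 h, 3.38, 4.48 and 3.17 at 1 h and 3.61, 3.10 and 5.05 at 1.5 h. Later it had 4.94, 2.44 and 3.90 CPM at 3 h, 2.72, 2.44 and 2.24 at 6 h and 1.21, 1.06 and 1.25 at 12 h. From 0.5 to 6 h all libraries lay above sham, and those of 12 h overlapped it.

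Its log2 fold change against sham was 1.25 ± 0.33 at 0.5 h (adjusted p = 0.0190), 1.55 ± 0.33 at 1 h (0.00429), 1.64 ± 0.33 at 1.5 h (0.00259), 1.59 ± 0.33 at 3 h (0.000699) and 0.98 ± 0.34 at 6 h (0.0206). At 12 h it was -0.09 ± 0.36 (0.868). Of these calls of Bmp2, the one at 0.5 h was lost without replicate 1 or 2 of sham (0.0795 and 0.0697) or replicate 3 of 0.5 h (0.151), with adjusted p from 0.00627 to 0.151 over its alternatives. The one at 6 h was lost without replicate 1 or 2 of sham (0.0757 and 0.0735) or replicate 1 of 6 h (0.0583), with adjusted p from 0.00505 to 0.0757 over its alternatives. Those of 1, 1.5 and 3 h held without each library in turn.

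Bmp4 (chr14:46383520-46390669, - strand), a close relative of Bmp2, had a short rise around 3 h. Libraries of sham had 4.82, 4.66 and 9.11 CPM, those of ischemia 3.42, 4.03 and 5.21, those of 0.5 h 5.67, 5.86 and 5.33, those of 1 h 6.54, 4.30 and 7.21 and those of 1.5 h 7.61, 8.09 and 11.1. It had 37.5, 14.9 and 19.1 CPM at 3 h, 15.3, 14.2 and 7.54 at 6 h and 6.70, 5.51 and 6.99 at 12 h. The 3 h libraries lay above sham, with replicate 1 far above the others of 3 h, and the 6 h and 12 h libraries overlapped sham.

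For Bmp4 the log2 fold change against sham was 1.96 ± 0.31 at 3 h (adjusted p = 4.43e-05), and 1.47 to 2.33 without each library in turn, called each time. At 6 h it was 1.01 ± 0.31 (0.0105), a call lost without replicate 1 or 2 of sham (0.0574 and 0.0604) or replicate 1 of 6 h (0.0538), with adjusted p from 8.13e-06 to 0.0604 over its alternatives. At 12 h it was 0.06 ± 0.32 (0.909). Gm15217 and Gm15222 overlap Bmp4 on the other strand.

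Bmp6 (chr13:38345107-38500302, + strand), the BMP ligand best known for iron sensing in the liver, rose by less than 1 log2 unit at each time it was called. It had 14.3 to 20.9 CPM in sham, 14.6 to 21.3 in ischemia and 19.8 to 24.8 CPM over 0.5 to 1.5 h. At 3 h it had 28.1, 26.2 and 25.5 CPM, at 6 h 31.8, 22.9 and 23.2 and at 12 h 27.5, 23.4 and 19.4 CPM, against 14.3, 16.4 and 20.9 CPM in sham. The libraries of 1, 1.5, 3 and 6 h lay above sham, and those of 0.5 and 12 h overlapped it.

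Bmp6 was higher than sham by 0.63 ± 0.16 at 3 h (adjusted p = 0.00376), 0.60 ± 0.16 at 6 h (0.00367) and 0.45 ± 0.16 at 12 h (0.0327). The 12 h call was lost without replicate 1 or 2 of sham (0.169 and 0.102) or replicate 1 or 2 of 12 h (0.170 and 0.0649), with adjusted p from 0.00702 to 0.170 over its alternatives, and it was also lost with duplicate reads removed (0.0531). At 1 h (0.44 ± 0.16, adjusted p = 0.0784) it became a call without replicate 3 of sham (0.0406), in a span of 0.0406 to 0.287. At 1.5 h (0.48 ± 0.16, 0.0682) it became a call without replicate 3 of sham (0.0350) and by DESeq2 (0.0408), in a span of 0.0350 to 0.263. The antisense gene 4930579J19Rik and Txndc5 overlap Bmp6 on the other strand.

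Smad7 (chr18:75367529-75395935, + strand), the inhibitor that feeds back on TGF-beta, activin and BMP receptors, was called higher than sham at all 6 reperfusion times. It had 11.2, 10.9 and 8.39 CPM in sham, 9.86, 10.6 and 15.5 in ischemia, 14.8, 17.7 and 25.7 at 0.5 h, 17.0, 24.4 and 19.0 at 1 h and 23.0, 17.4 and 19.8 at 1.5 h. Later it had 28.4, 24.6 and 38.2 CPM at 3 h, 43.3, 47.5 and 47.2 at 6 h and 18.02, 16.02 and 24.1 at 12 h. Every reperfusion library lay above sham, and the 6 h libraries lay above those of every other group.

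The log2 fold change of Smad7 against sham was 0.93 ± 0.22 at 0.5 h (adjusted p = 0.00910), 0.98 ± 0.22 at 1 h (0.00554), 0.98 ± 0.22 at 1.5 h (0.00621), 1.58 ± 0.22 at 3 h (7.89e-06), 2.17 ± 0.22 at 6 h (3.22e-08) and 0.93 ± 0.22 at 12 h (0.00206). In ischemia it was 0.24 ± 0.22 (0.817). The 0.5 h call was lost without replicate 3 of sham (0.0575) or replicate 3 of 0.5 h (0.0758), with adjusted p from 3.18e-06 to 0.0758 over its alternatives, and the later ones were kept without each library in turn.

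**Figure D2:**
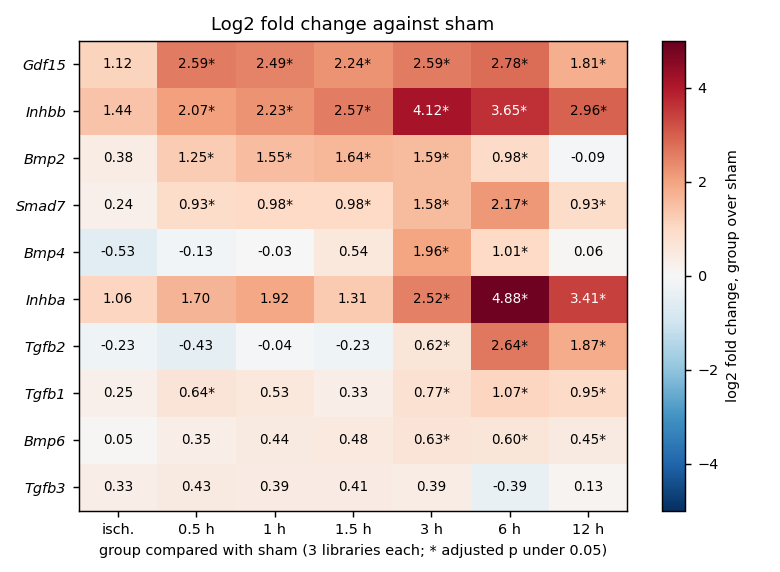
Log2 fold change of each member against sham (colour and printed number, red above 0 and blue below) in the 7 comparisons, from ischemia on the left to 12 h on the right, with a star where the adjusted p was under 0.05. The highest values are Inhba at 6 h (4.88) and Inhbb at 3 h (4.12), and Tgfb3 has no star.

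Between neighbouring times, the members were called at steps after 1.5 h only. In 0.5 h hearts against ischemia 0 members were called (0.0331% of all tested genes higher and 0% lower), while 4 were higher and 0 lower at an unadjusted p under 0.05, and DESeq2 called 0. Without ischemia replicate 3, the library that stood apart, edgeR called Tgfb1 (0.64, adjusted p = 0.0297), Gdf15 (2.25, 0.0261) and Smad7 (0.92, 0.0215) higher in this step, in a fit that called 4.31% of all tested genes higher and 3.17% lower. The spans of adjusted p over all alternatives were 0.0297 to 0.978 for Tgfb1, 0.000117 to 0.978 for Gdf15 and 0.00482 to 0.978 for Smad7. In 1 h hearts against 0.5 h hearts (0% of all tested genes higher and 0% lower) and in 1.5 h hearts against 1 h hearts (0.0529% and 0.0132%), 0 members were called by edgeR and by DESeq2, and 0 had an unadjusted p under 0.05.

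In 3 h hearts against 1.5 h hearts, 3 members were higher and 0 lower (5.36% and 3.17% of all tested genes), namely Inhbb, Tgfb2 and Bmp4; 0 were lower at an unadjusted p under 0.05 or by DESeq2. Tgfb2 had 0.85 ± 0.21 (adjusted p = 0.0123), lost without replicate 2 of 1.5 h (0.0769) or replicate 3 of 3 h (0.0578), with adjusted p from 2.82e-05 to 0.0769 over its alternatives. Bmp4 had 1.42 ± 0.30 (0.00453), lost without replicate 1 of 3 h (0.0574), with adjusted p from 3.22e-10 to 0.0574 over its alternatives. Smad7 had 0.60 ± 0.21 (0.0736) and became a call without replicate 2 of 3 h (0.0435), in a span of 0.00637 to 0.372. The count of 3 was 1 without replicate 2 of 1.5 h and 1 without replicate 1 of 3 h. All tested genes called higher and lower were then 359 and 166, and 427 and 273 (811 and 479 with all libraries).

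In 6 h hearts against 3 h hearts, 3 members were higher and 2 lower (14.7% and 13.2% of all tested genes). Tgfb2 and Inhba rose and Tgfb3 fell, as given above. Smad7 rose by 0.60 ± 0.20 (adjusted p = 0.0307), lost without replicate 1 or 2 of 3 h (0.0790 and 0.1495) or replicate 2 or 3 of 6 h (0.0844 and 0.0783), with adjusted p from 0.00139 to 0.1495 over its alternatives. Bmp4 fell by 0.95 ± 0.29 (0.0173), lost without replicate 1 of 3 h (0.220) or replicate 3 of 6 h (0.110), with adjusted p from 2.55e-05 to 0.220 over its alternatives. The count of 5 was 3 without replicate 1 of 3 h and 3 without replicate 3 of 6 h. All tested genes called higher and lower were then 2508 and 2007, and 1688 and 1345 (2227 and 1996 with all libraries).

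In 12 h hearts against 6 h hearts, 1 member was higher and 5 were lower (6.49% and 6.68% of all tested genes). Smad7 fell by 1.25 ± 0.21 (adjusted p = 0.000321), the 1 of these calls that held without each library in turn. Tgfb2 fell by 0.77 ± 0.19 (0.00870), lost without replicate 2 or 3 of 6 h (0.0594 and 0.0700), with adjusted p from 3.25e-05 to 0.0717 over its alternatives. Inhba fell by 1.47 ± 0.45 (0.0314), lost without replicate 2 or 3 of 6 h (0.109 and 0.0956) or replicate 1 or 2 of 12 h (0.144 and 0.0951), with adjusted p from 0.000172 to 0.144 over its alternatives.

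The other 3 calls of that step also depended on single libraries. Bmp2 fell by 1.07 ± 0.33 (adjusted p = 0.0332), lost without replicate 1 or 2 of 6 h (0.0869 and 0.0902) or replicate 1, 2 or 3 of 12 h (0.0787, 0.106 and 0.0586), with adjusted p from 0.0172 to 0.106 over its alternatives. Bmp4 fell by 0.95 ± 0.31 (0.0413), lost without replicate 1 or 2 of 6 h (0.149 and 0.163) or replicate 1, 2 or 3 of 12 h (0.0856, 0.135 and 0.0627), with adjusted p from 0.000172 to 0.163 over its alternatives. Tgfb3 rose by 0.52 ± 0.17 (0.0419), lost without replicate 1 or 2 of 6 h (0.0913 and 0.236) or replicate 1, 2 or 3 of 12 h (0.137, 0.142 and 0.0512), with adjusted p from 0.0117 to 0.236 over its alternatives. The count of 6 was 3 without replicate 1 of 6 h, 1 without replicate 2 of 6 h, and 2, 2 and 3 without replicate 1, 2 or 3 of 12 h. All tested genes called higher and lower were 850 and 872, and 368 and 418, in the fits without a 6 h library (982 and 1010 with all libraries). In those without a 12 h library they were 525 and 615, 550 and 636, and 893 and 899.

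Of 106 other genes of the pathway in 8 lists, 81 were tested. Against sham 0 were called in ischemia (7 higher and 2 lower at an unadjusted p under 0.05, 0 by DESeq2). Called higher and lower were 10 and 5 at 0.5 h, 12 and 2 at 1 h, 14 and 2 at 1.5 h, 32 and 7 at 3 h, 35 and 14 at 6 h, and 22 and 10 at 12 h. Of all tested genes, 7.43% and 4.48% were called higher and lower at 0.5 h, 7.46% and 3.41% at 1 h, 4.55% and 2.99% at 1.5 h, 18.4% and 16.9% at 3 h, 24.6% and 22.9% at 6 h and 16.9% and 14.9% at 12 h. The 0.5 h count of 15 was 9 without replicate 1 of sham and 8 without replicate 1 or 3 of 0.5 h, the 1 h count of 14 was 9 without replicate 1 of 1 h, and the 1.5 h count of 16 was 10 without replicate 3 of sham. All tested genes called higher and lower fell in the same fits. At 0.5 h they numbered 540 and 226, 446 and 157, and 573 and 198 (1124 and 678 with all libraries). At 1 h they numbered 441 and 118 (1129 and 516), and at 1.5 h 441 and 229 (689 and 452).

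**Figure D3:**
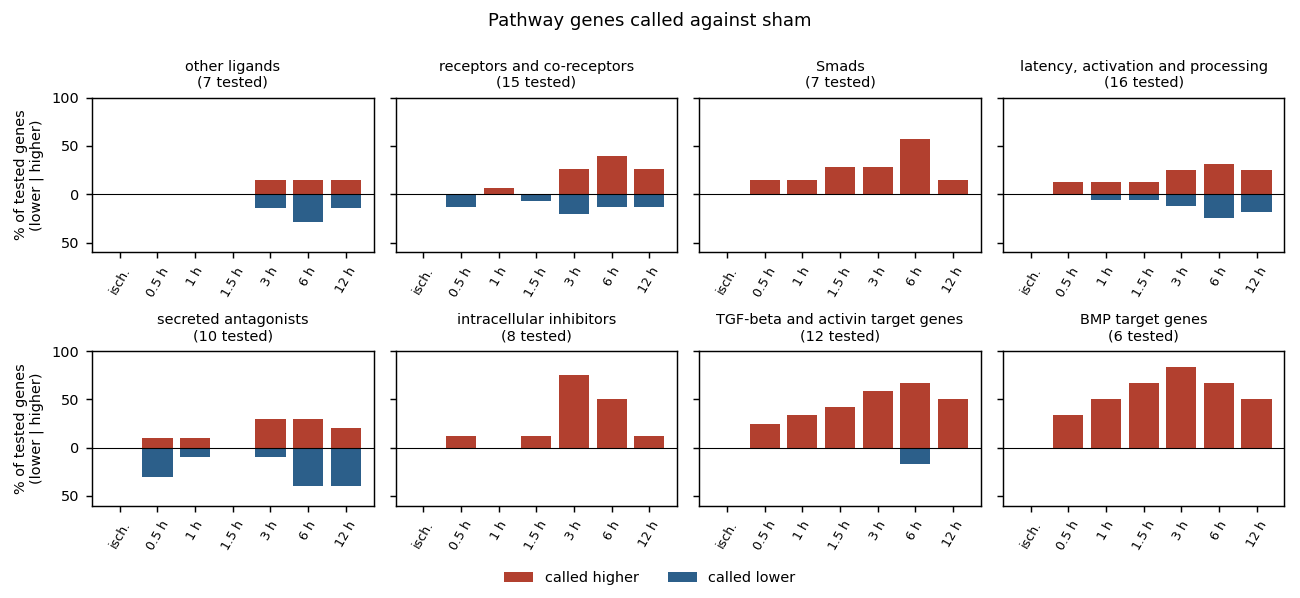
Percent of the tested genes of each pathway list called higher (red, above the line) or lower (blue, below the line) than sham in the 7 comparisons, from ischemia on the left to 12 h on the right. No list has a bar in ischemia, BMP targets and intracellular inhibitors have red bars only, and TGF-beta and activin targets have a blue bar at 6 h only.

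Among 7 other ligands tested, 1 was higher and 2 were lower at 6 h, where 24.6% and 22.9% of all tested genes were. Gdf6, a BMP-type ligand, had 3.55, 4.15 and 4.92 CPM at 6 h, against 0.449, 0.548 and 0.720 CPM in sham, and rose by 2.88 ± 0.37 (adjusted p = 1.18e-06). Inha, the inhibin subunit that pairs with activin subunits to make inhibins, had 3.55, 2.74 and 2.37 CPM at 6 h, against 7.90, 7.40 and 3.68 CPM in sham, and fell by 1.14 ± 0.25 (0.000552). The ranges of 6 h and sham did not overlap for either gene. Bmp10 and Inhbe were counted 0 times in all libraries.

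In the list of secreted antagonists, 3 of 10 tested genes were higher and 4 lower at 6 h, where 24.6% and 22.9% of all tested genes were. Fst and Fstl3 encode follistatin and a follistatin-like protein, which trap activins. Fstl3 had 15.4, 24.3 and 20.1 CPM at 6 h, against 2.18, 0.479 and 1.12 CPM in sham, and rose by 2.17 ± 0.34 at 3 h (adjusted p = 3.36e-05), 3.96 ± 0.33 at 6 h (2.08e-09) and 3.53 ± 0.33 at 12 h (2.59e-08). Fst had 5.80, 5.97 and 4.92 CPM at 6 h, against 0.899, 0.411 and 0.879 CPM in sham, and rose by 2.92 ± 0.53 (9.18e-05). Both genes had their highest mean at 6 h, as Inhba did, and a link between them was not tested. Chrd, which binds BMPs, fell by 1.12 ± 0.31 at 6 h (0.00503).

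Genes of latency, activation and processing, which hold TGF-beta in the matrix, cut precursors and release the ligand, were called higher for 5 and lower for 4 of 16 tested at 6 h, shares near those of all tested genes (24.6% and 22.9%). Thbs1, the matrix protein thrombospondin that can activate TGF-beta, rose by 1.89 ± 0.37 at 0.5 h (adjusted p = 0.00291) and 4.17 ± 0.40 at 6 h (1.54e-08), with 682, 885 and 617 CPM at 6 h, against 46.4, 35.8 and 39.0 CPM in sham. Lrrc32, a cell surface anchor of latent TGF-beta, rose by 2.12 ± 0.25 at 3 h (9.69e-07), with 39.0, 66.9 and 65.0 CPM, against 11.04, 14.0 and 14.2 CPM in sham. Furin, a protease that cuts ligand precursors, rose by 0.99 ± 0.17 at 3 h (0.000110), while Pcsk6, a protease of the same class, fell by 1.57 ± 0.18 at 6 h (1.97e-07). Itgb6, an integrin subunit that releases TGF-beta, fell by 1.94 ± 0.29 at 3 h (2.32e-05). Ltbp2, of the family of latent TGF-beta binding proteins, rose by 1.89 ± 0.24 at 12 h (2.22e-06).

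Of 15 tested receptors and co-receptors, 6 were higher and 2 lower at 6 h, where 24.6% and 22.9% of all tested genes were. Tgfbr1 and Tgfbr2, the receptor pair of TGF-beta, rose by 0.84 ± 0.21 and 0.78 ± 0.13 at 6 h (adjusted p = 0.00207 and 2.00e-05). The activin receptor Acvr1b rose by 0.76 ± 0.15 at 3 h (0.000523), with 48.7, 34.3 and 36.9 CPM, against 22.0, 23.3 and 25.7 CPM in sham. Bmpr1a, a BMP receptor, fell by 0.72 ± 0.13 at 0.5 h (0.00202), with 70.8, 75.3 and 76.6 CPM, against 131, 112 and 124 CPM in sham. For Acvr1b and Bmpr1a the ranges at these times and in sham did not overlap.

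Among 7 Smad genes besides Smad7, edgeR called 2 higher at 3 h and 4 at 6 h, and 0 lower at any reperfusion time. Of all tested genes, 18.4% and 24.6% were higher at 3 and 6 h, and 2.99% to 22.9% were lower over the reperfusion times. At an unadjusted p under 0.05, 1 Smad gene was lower at 1 h, 2 at 1.5 h, 1 at 3 h and 1 at 6 h. DESeq2 called 1 lower at 3 h. Smad1 of the BMP branch rose by 1.28 ± 0.19 at 3 h (adjusted p = 2.45e-05), with 77.3, 53.7 and 59.4 CPM, against 25.5, 24.2 and 28.6 CPM in sham. The inhibitor Smad6 rose by 1.20 ± 0.23 (0.000266), with 21.6, 19.7 and 22.6 CPM, against 9.31, 10.5 and 7.995 CPM in sham. The ranges of 3 h and sham did not overlap for either gene.

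**Figure D4:**
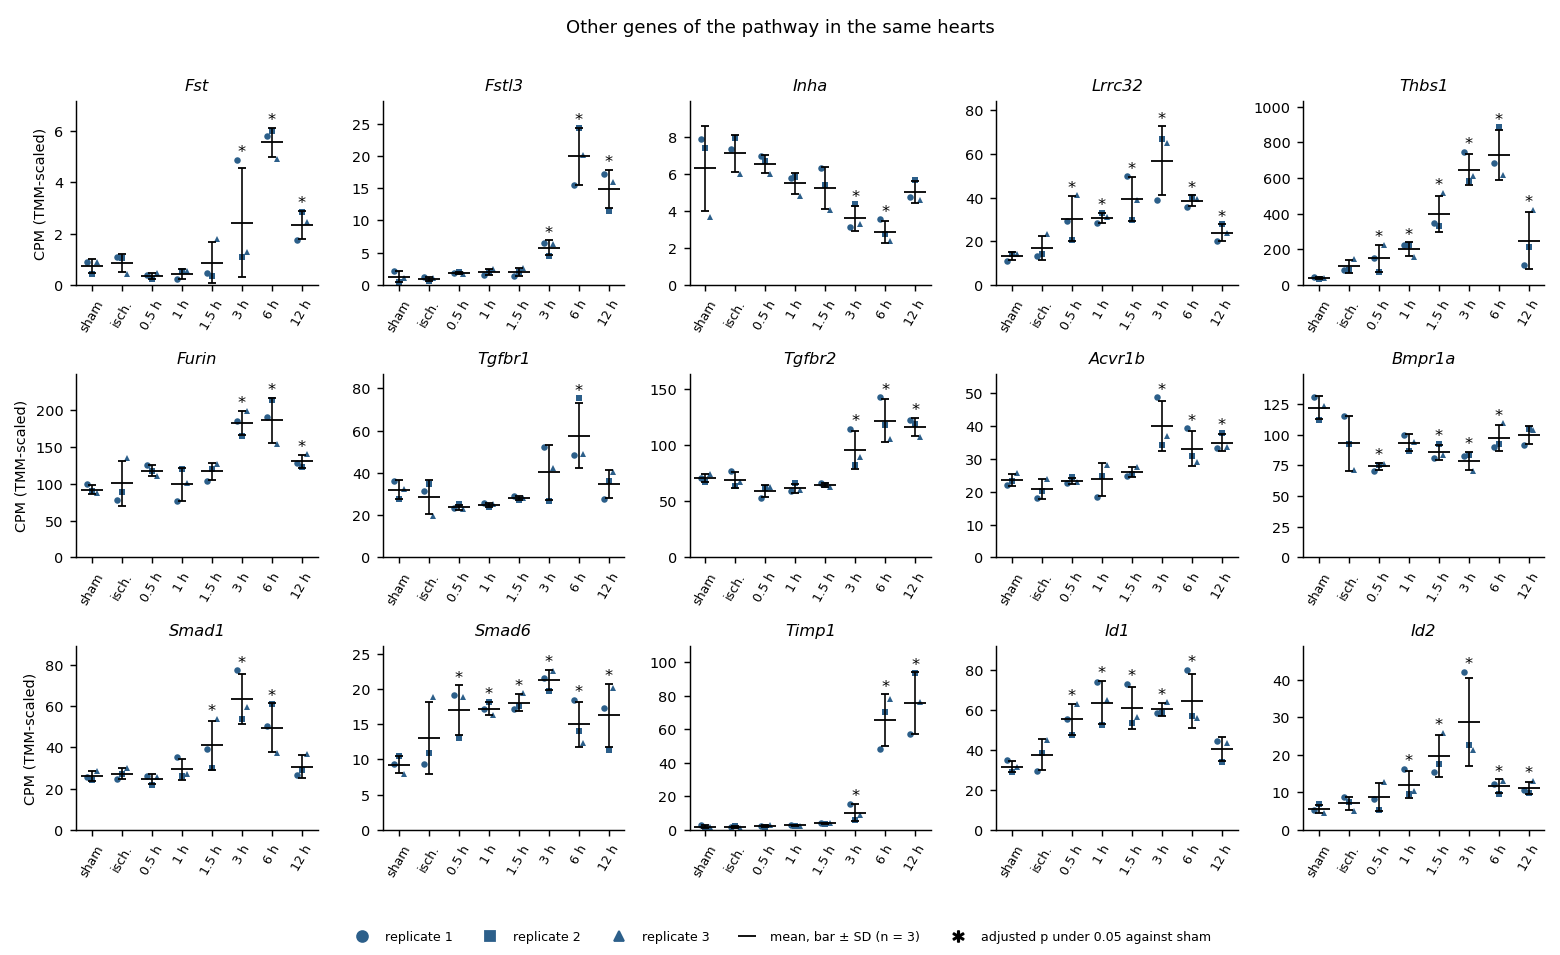
Level in CPM of the TMM-scaled library (vertical axis, linear, from 0) of 15 other pathway genes in the 8 groups, with 1 point per library, the mean ± SD of 3 libraries and a star where the adjusted p against sham was under 0.05. The follistatin genes Fst and Fstl3 are highest at 6 h, Lrrc32, Smad1 and Id2 at 3 h, and the target gene Timp1 has overlapping high values at 6 and 12 h.

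Genes known as targets of the pathway were called higher more often than lower during reperfusion, as were all tested genes. Many of the targets also answer to other signals. Of 12 tested TGF-beta and activin targets, 3, 4, 5, 7, 8 and 6 were higher from 0.5 to 12 h, and 2 were lower at 6 h. Of all tested genes, 7.43%, 7.46%, 4.55%, 18.4%, 24.6% and 16.9% were higher at these times, and 22.9% were lower at 6 h. Timp1, a protease inhibitor, had 48.5, 70.7 and 78.0 CPM at 6 h, against 2.83, 1.30 and 1.60 CPM in sham, and rose by 5.08 ± 0.33 (adjusted p = 5.80e-11). Ccn2, a matrix protein, rose at 6 h by 3.50 ± 0.37. The 2 lower genes were the collagens Col3a1, which fell by 1.80 ± 0.33, and Col1a1, which fell by 1.07 ± 0.28. Col1a1 is also in the list of fibroblast markers used below. Acta2 and Tagln are both in this target list and among the smooth muscle and pericyte markers. Calls of these targets and sums of those markers are therefore not independent.

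BMP targets were higher for 2, 3, 4, 5, 4 and 3 of 6 tested genes from 0.5 to 12 h. Of them 0 were lower by edgeR, by DESeq2 or at an unadjusted p under 0.05. At the same times 7.43%, 7.46%, 4.55%, 18.4%, 24.6% and 16.9% of all tested genes were called higher, and 2.99% to 22.9% lower. Id1, Id2 and Id3 encode inhibitors of helix-loop-helix transcription factors. Id3 rose by 1.00 ± 0.17 at 0.5 h (adjusted p = 0.00108) and Id1 by 0.80 ± 0.17 (0.00537). The part of any ligand in these rises was not tested. Id2 had 42.2, 22.7 and 21.4 CPM at 3 h, against 5.20, 6.92 and 4.64 CPM in sham (2.36 ± 0.31, 3.65e-06).

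Among the intracellular inhibitors, 6 of 8 tested genes were higher at 3 h and 4 at 6 h, where 18.4% and 24.6% of all tested genes were. At these times 0 of the 8 were lower by edgeR, by DESeq2 or at an unadjusted p under 0.05. Of all tested genes, 16.9% and 22.9% were called lower. Tgif1, a repressor that binds Smads, rose by 1.60 ± 0.23 at 3 h and 1.69 ± 0.23 at 6 h. Pmepa1, which like Smad7 is induced by TGF-beta and restrains it, rose by 1.39 ± 0.16 at 6 h (adjusted p = 3.52e-07), with 64.0, 88.9 and 79.1 CPM, against 34.2, 28.4 and 26.0 CPM in sham. Smad7 and Pmepa1 both had their highest mean at 6 h, as Tgfb1, Tgfb2, Inhba and Gdf15 did. A link between ligand and inhibitor genes was not tested.

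Markers of other cell types moved in the same libraries. The 8 neutrophil markers summed to 63.2 to 153 CPM at 6 h and 57.2 to 65.6 CPM at 12 h, against 3.56 to 6.56 CPM in sham, where Ly6g was at 0 in all 3 libraries, and all 7 tested markers were called higher at both times. The 6 fibroblast markers summed to 415 to 609.5 CPM at 6 h, against 884 to 925 CPM in sham, with 2 called higher and 4 lower. The 7 smooth muscle and pericyte markers summed to 901 to 1211 CPM at 6 h, against 1603 to 1654 CPM in sham, with 2 higher and 3 lower. These moves fall at the time at which Tgfb2, Inhba and Smad7 were highest.

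Markers also moved earlier, in ischemia and at the times at which Inhbb, Gdf15, Bmp2 and Smad7 rose. In ischemia neutrophil markers summed to 9.72 to 15.6 CPM and erythroid markers to 244 to 297 CPM, above sham, with 0 called. Smooth muscle and pericyte markers summed to 1392 to 1495 CPM in ischemia and 1217 to 1366 CPM at 0.5 h. These lay below the 1603 to 1654 CPM of sham, with 0 called in ischemia and 1 higher and 1 lower at 0.5 h. Of the 7 tested neutrophil markers, 3, 4, 5 and 6 were called higher at 0.5, 1, 1.5 and 3 h, with sums of 10.1 to 14.2 CPM at 0.5 h, 10.5 to 14.5 at 1 h, 9.69 to 24.1 at 1.5 h and 10.2 to 30.6 at 3 h. Of 5 erythroid markers 3 were higher at 0.5 h and 2 at 1 h, with sums of 219 to 352 CPM at 0.5 h, against 79.2 to 186 CPM in sham. Of 5 monocyte markers 2 were lower at 0.5 h, with sums of 147 to 169 CPM, against 159 to 183 CPM in sham. The part of the marker moves, early and late, in the levels of the members was not tested.

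The 7 endothelial markers summed to 1197 to 1228 CPM at 6 h, against 944 to 1048 CPM in sham, with 2 higher and 1 lower. The 5 platelet markers summed to 20.1 to 37.7 CPM at 6 h, against 11.4 to 14.2 CPM in sham, with 2 of 4 tested higher. Ventricular markers summed to 42029 to 49848 CPM at 12 h, against 59110.0 to 62404 CPM in sham, with 0 higher and 3 lower of 8. Of 5 monocyte markers 4 were higher at 6 h, with sums of 126 to 195 CPM, against 159 to 183 CPM in sham, and of 9 macrophage markers 5 were higher and 2 lower, with 341 to 398 CPM, against 298 to 328 CPM in sham. Over all libraries the sums were 79.2 to 360.2 CPM for erythroid, 8.35 to 48.1 for mesothelial, 0.449 to 4.92 for B cell, 0.165 to 3.67 for T and NK cell, 0.183 to 2.06 for skeletal muscle and 0 to 0.354 for lung epithelium markers.

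**Figure D5:**
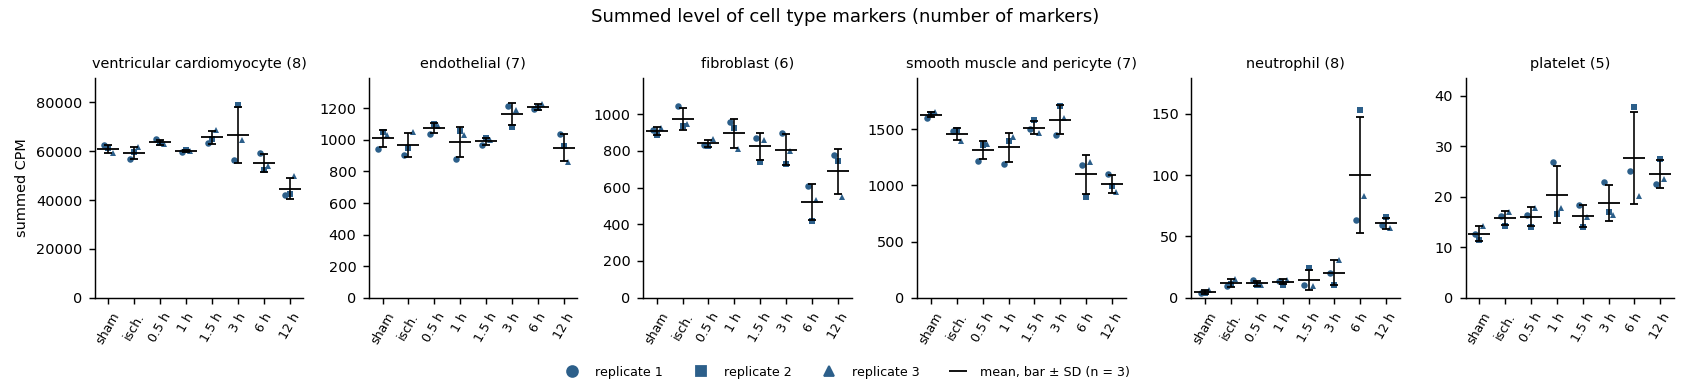
Summed CPM of the markers of 6 cell types (vertical axes, linear, from 0) in the 8 groups, with 1 point per library and the mean ± SD of 3 libraries. Neutrophil sums are highest at 6 h (63.2 to 153 CPM, against 3.56 to 6.56 CPM in sham), and fibroblast sums are lowest there.

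For 8 of the 9 members with a call against sham, the genes with the most similar course were those whose 7 log2 fold changes against sham differed least on average, out of 13097 genes searched. By this mean absolute difference, nearest to Tgfb1 were Eif4ebp1 and Ntmt1 (0.0591 and 0.0690), to Bmp6 Supt5 and Pla2g12a (0.0617 and 0.0655), to Smad7 Thbd and Rhoc (0.13 and 0.18) and to Bmp2 Slc25a25 and Errfi1 (0.14 and 0.21). Gdf15 lay nearest to Rgs16 and Cd14 (0.16 and 0.27) and Bmp4 to Adgrg1 and Arid5b (0.22 and 0.22). Inhbb lay nearest to Plaur and Gm13889 (0.25 and 0.28), and Inhba to Rasl11b and Adam8 (0.37 and 0.41). All 7 values share the sham libraries, so this likeness describes a course and carries no test.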

How the data were processed

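RNA from flash-frozen hearts was made into 24 Illumina TruSeq libraries from 1 ug of total RNA, per the labels, 3 for each of 8 groups taken from the sample labels. The authors deposited, per the file headers, counts of uniquely mapped reads per Ensembl gene with duplicates kept, the same counts with duplicates removed, and RPKM values that the authors scaled to gene length and library size. The submitters' processing notes name mm10. The aligner, the counter and the strand setting were not given in the sources used here. Of 46078 identifiers, 45143 had a symbol in GENCODE.

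Counts with duplicates kept were fitted in 1 model of all 24 libraries with edgeR 4.0.16 in R 4.3.3 (TMM factors 0.858 to 1.16, filterByExpr with a minimum count of 10 and total of 15, quasi-likelihood test). It left 15128 tested genes with 16 residual degrees of freedom, for 7 comparisons with sham, 6 steps between neighbouring groups and 1 test across groups. RPKM was used for levels between genes. DESeq2 1.42.0 and the other settings named in the closing section were alternatives, and the fit was tested on simulated data. Tables and figures used Python 3.11.15, pandas 2.3.3 and matplotlib 3.10.9.

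The members and lists were chosen with earlier results of these data known. Besides the members, up to 3 called rises and 2 called falls per pathway list and comparison could be named, at 1 CPM or more in the higher group, and the 2 genes nearest in course per member. Some results under this rule are not reported here. Intervals from these tests cover the spread between libraries, and floors of 3 counts cover counting error only. One listed gene, Gdf1, matched no identifier and 25 matched pathway genes fell under the filter.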

Additional observations from a re-analysis of the deposited data

How the results depend on the processing

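No called member value changed sign under any alternative. The sign of 61 of 1685 values did, called in neither fit, 9 of them with library totals in place of TMM (against sham, Bmp2 at 12 h with 0.12 and Bmp4 at 0.5 and 1 h with 0.0053 and 0.017). Of 52 calls of members against sham or between neighbouring groups, 32 were kept under every alternative run; the cause of the lost calls was not tested. Without a filter on low counts, 1 member was called in ischemia against sham and 2 at 0.5 h against ischemia (0 each with the filter), and 4 pathway genes in ischemia (0 with it). Of all 26977 genes in that fit, 236 were called higher and 53 lower in ischemia (14 and 0 with the filter). At 0.5 h against ischemia they were 231 and 98 (5 and 0). With only the libraries of the groups compared, 3 pathway genes were called in ischemia (0 with all libraries), 32 at 0.5 h (15 with all) and 2 members at 12 h against 6 h (6 with all). All tested genes called higher and lower in these fits numbered 26 and 3 in ischemia (14 and 0 with all libraries). At 0.5 h they numbered 2168 and 1769 (1124 and 678), and at 12 h against 6 h 704 and 765 (982 and 1010). Library totals in place of TMM gave 3 members at 12 h against 6 h. They shifted the median of all tested genes by 0.13 at 0.5 h, 0.22 at 12 h and 0.17 at 12 h against 6 h, and the share of higher calls to 87.6% (62.4% with TMM), 76.9% (53.1%) and 80.7% (49.3%), and at 1 h to 81.7% (68.6%). Without each library in turn the members called against sham numbered 0 to 0 in ischemia, 2 to 4 at 0.5 h, 4 to 5 at 1 h, 3 to 4 at 1.5 h, 8 to 9 at 3 h, 7 to 10 at 6 h and 5 to 6 at 12 h. Between neighbouring groups they numbered 0 to 3 at 0.5 h, 0 to 0 at 1 h, 0 to 0 at 1.5 h, 1 to 4 at 3 h, 3 to 5 at 6 h and 1 to 5 at 12 h, and across groups 10 to 10. Called members at 0.5 h were 3 without replicate 2 of sham and 2 without replicate 3 of sham or of 0.5 h. All tested genes called higher and lower were then 610 and 294, 494 and 170, and 573 and 198 (1124 and 678 with all libraries). Pathway genes numbered 0 to 0 in ischemia, 8 to 12 at 0.5 h, 9 to 15 at 1 h, 10 to 17 at 1.5 h, 32 to 42 at 3 h, 39 to 46 at 6 h and 26 to 33 at 12 h. The labels' replicate numbers did not pair the samples (correlations of deviations from the group means -0.124 to 0.145 over 39 pairs, 4 over 0.1). A replicate block left the count of called members unchanged in each comparison, for example 5 at 0.5 h and 9 at 3 and 6 h, and gave 16 pathway genes at 0.5 h, 16 at 1 h and 47 at 6 h. Sham reads over the group were fewest for Inhba (11), Gdf15 (36) and Bmp2 (53); lower depths were not tested.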
